A study of Homo sapiens with 2 samples.

Results

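The 4 human Argonaute genes (AGO1 to AGO4) and the 3 TNRC6 genes (TNRC6A, TNRC6B and TNRC6C) were followed on 2 Affymetrix arrays of RNA recovered by immunoprecipitation from 293T cells, a human embryonic kidney line that carries the SV40 large T antigen. The genes were chosen by symbol, and every probe set that the platform annotation gives to exactly 1 of them was used: 33 of 54675 probe sets, and 7 of 19775 genes on the array. The miR-941 array held RNA from cells transfected with synthetic miR-941, a microRNA described as specific to humans, at 30 nmol/l and precipitated with an Ago2 antibody. The control array held RNA from cells given a scrambled oligonucleotide at 30 nmol/l. Its title and description name an Ago2 precipitate (the description writes mock transfection), whereas its antibody entry reads nonimmune IgG beads, from another vendor. If that entry is right, oligonucleotide and antibody change together and cannot be told apart. Each group is 1 array of an established line with no replicate check, so differences carry no test and no p-value.

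Argonaute proteins hold a microRNA and use it to find complementary mRNAs. AGO2 is the member known to cleave a perfectly matched target, and AGO1, AGO3 and AGO4 act mainly through partner proteins. TNRC6 proteins (the GW182 family) bind Argonaute through glycine-tryptophan repeats and bring in the deadenylases that shorten the target's poly(A) tail. What the arrays measured was the mRNA of these genes in the precipitate, not their proteins.

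The transfected microRNA is shown because it is what the miR-941 cells received. Its mature form, 23 bases in RefSeq (GRCh38.p14), is the same in all 5 MIR941 genes on chromosome 20. In MIR941-1 the mature form lies at chr20:63919495-63919517 on the plus strand. Capitals mark the seed (bases 2 to 8), which pairs with target mRNAs.
hsa-miR-941: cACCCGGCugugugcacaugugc
The letters that would pair with this seed in an mRNA are GCCGGGU. Whether the Argonaute and TNRC6 mRNAs hold them was not examined.

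Between the arrays, AGO2, AGO4 and all 3 TNRC6 genes read lower with miR-941, and AGO1 and AGO3 higher, taking each gene by its brightest probe set. Values are the authors' expression values, taken as log2, and a difference is the miR-941 value minus the control value. A probe set was taken as detected when its mean over both arrays was above 0.92, the median level of the array once its control probe sets are set aside. All 7 genes had at least 1 detected probe set, and 27 of the 33 probe sets passed. That 5 of 7 genes read lower stands beside 42.4% of 13150 detected genes that did so, and 2 of 7 higher beside 46.3%. The median difference of the 7 genes was -0.53, against 0.00 over all detected genes. With the mean or the median over the detected probe sets of each gene it was -0.25 or -0.24, and AGO1 was lower as well.

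AGO4 and TNRC6C were lower by 1.5-fold or more (0.58 on the log2 scale), so 2 of 7, where 2.87% of detected genes were; with the median over the probe sets of a gene, the TNRC6C difference was -0.24 and only AGO4 passed. None was higher by that much, where 2.94% of detected genes were, and none differed by 2-fold, where 0.517% did. No input RNA was analysed here. A lower value can therefore stand for less mRNA in the cells or for less recovery of it. Fewer cells holding that mRNA cannot be told from less of it per cell.

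**Figure D1:**
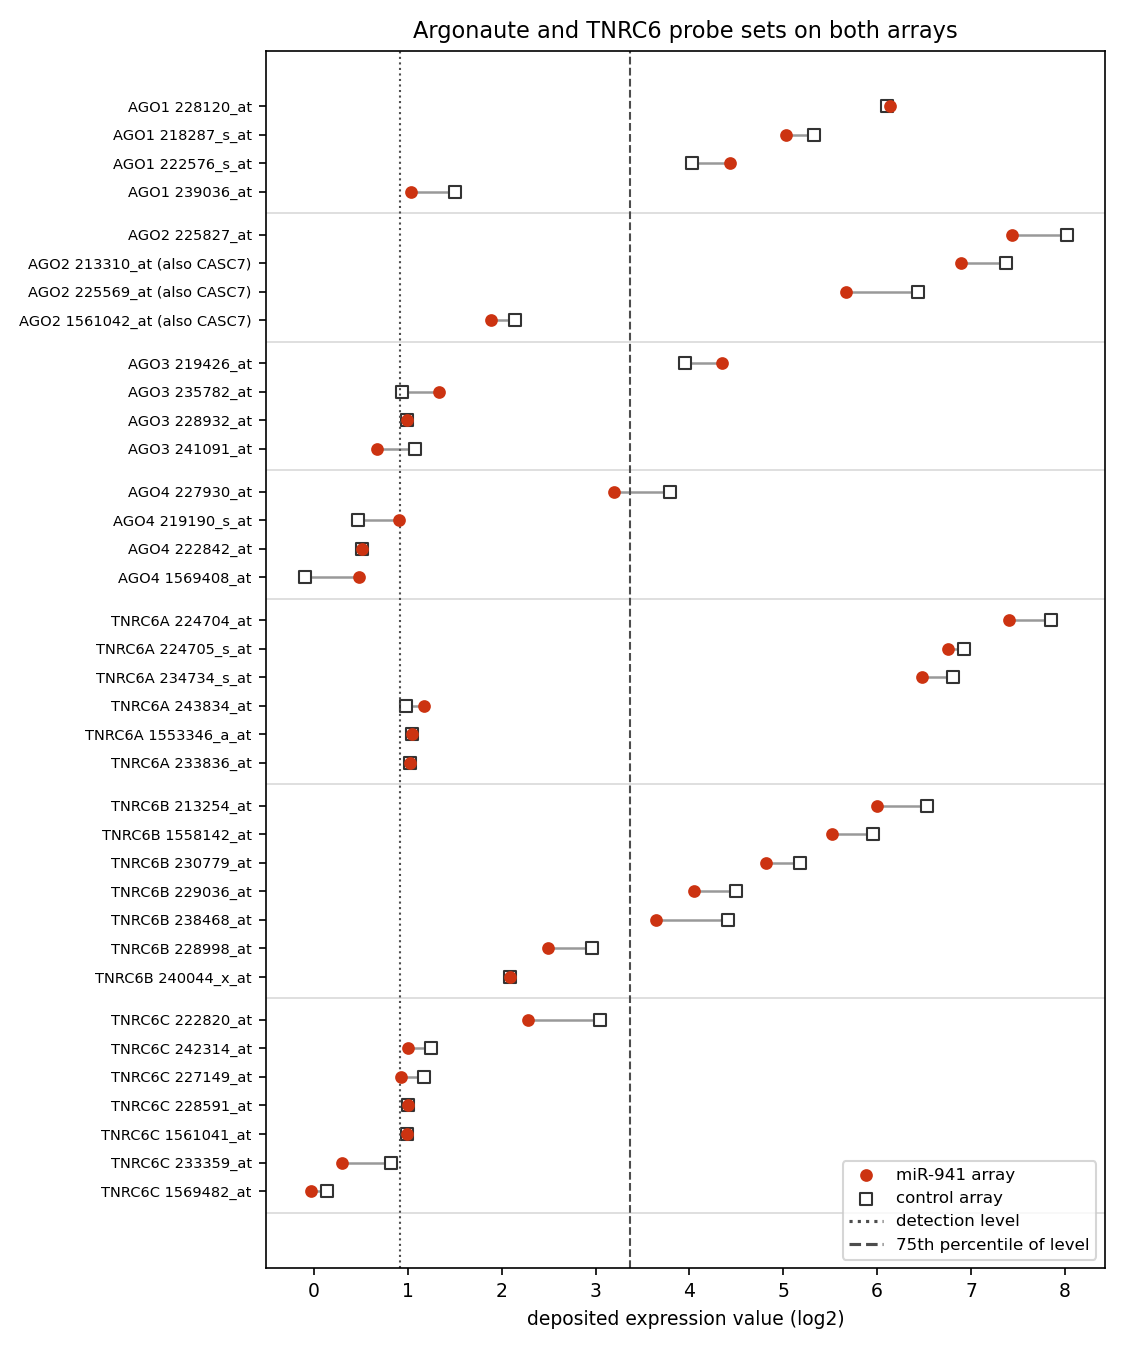
Deposited log2 values (horizontal axis) of every Argonaute and TNRC6 probe set, 1 per line, on the miR-941 array (filled circles) and on the control array (open squares); the dotted line is the detection level and the dashed line the 75th percentile of level. AGO2, TNRC6A and TNRC6B sit left of the control on every line to the right of the dashed one, while AGO1 and AGO3 have lines in both directions or to the right.

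AGO2, whose protein is the target of the antibody, read lower on the miR-941 array wherever the array measures it. Its single probe set under the rule, 225827_at, read 7.44 on the miR-941 array and 8.02 on the control array. The difference of -0.58 is 1.49-fold lower, just short of the 1.5-fold limit, and 2.69% of probe sets above the 75th percentile of level (3.37) differed by as much downwards.

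A further 3 probe sets are annotated to AGO2 together with CASC7, which the RefSeq gene table lists as a synonym of AGO2. They were left out of the member set because they carry 2 symbols. Probe set 225569_at read 5.67 on the miR-941 array and 6.43 on the control array, a difference of -0.77. Probe set 213310_at read 6.89 on the miR-941 array and 7.38 on the control array (-0.48). The dimmest, 1561042_at, read 1.88 on the miR-941 array and 2.14 on the control array (-0.26). All 4 AGO2 probe sets were thus lower, with a median difference of -0.53 (SD 0.21 over 4 probe sets). The other 6 genes have no probe set shared in this way.

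AGO4 had 1 detected probe set, and it was lower. Probe set 227930_at read 3.19 on the miR-941 array and 3.79 on the control array, a difference of -0.60 (1.51-fold lower). Its other 3 probe sets lay below the detection level on average, where 2 read higher and 1 was identical on both arrays (differences of 0.44, 0.58 and 0.00). AGO4 therefore rests on a single probe set.

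AGO1 did not differ in one direction. Its brightest probe set, 228120_at, read 6.13 on the miR-941 array and 6.10 on the control array, a difference of 0.03. Probe set 218287_s_at read 5.02 with miR-941 against 5.33 in the control (-0.31), while 222576_s_at read 4.43 with miR-941 against 4.03 in the control (0.40). The dim probe set 239036_at had 1.03 with miR-941 against 1.5 in the control (-0.47). The median over these 4 was -0.14 with an SD of 0.39, so the probe sets of AGO1 spread more widely than their median lies from 0.

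AGO3 was the Argonaute gene whose detected probe sets were never lower. The brightest, 219426_at, read 4.35 on the miR-941 array and 3.95 on the control array (0.39). Probe set 235782_at read 1.34 with miR-941 against 0.94 in the control (0.40), and 228932_at read 0.99 on both arrays. The last, 241091_at, was below the detection level on average and pointed the other way, with 0.67 with miR-941 against 1.07 in the control (-0.40). AGO4, AGO1 and AGO3 are consecutive protein-coding genes on chromosome 1, and their brightest probe sets differed by -0.60, 0.03 and 0.39 in that order along the chromosome.

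TNRC6B was lower on nearly all of its probe sets. Its 7 probe sets were all detected: 6 were lower on the miR-941 array, 1 was identical and none was higher. The brightest, 213254_at, read 5.99 on the miR-941 array and 6.53 on the control array (-0.53). Probe set 1558142_at read 5.52 with miR-941 against 5.96 in the control (-0.44), and 230779_at read 4.81 with miR-941 against 5.18 in the control (-0.37). These 3, the brightest probe sets of this GW182 paralogue, lay within 0.17 of each other in their differences.

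The dimmer TNRC6B probe sets 229036_at and 238468_at read 4.05 and 3.64 on the miR-941 array, against 4.49 and 4.41 on the control array. The second of these had the largest difference of any of the 33 probe sets, -0.77. Probe set 228998_at read 2.49 with miR-941 against 2.97 in the control (-0.47), and 240044_x_at read 2.09 on both arrays. The median was -0.44 (SD 0.23 over 7 probe sets).

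Of 2578 genes that have at least 3 detected probe sets, 19.9% had none higher and at least 1 lower, which TNRC6B and TNRC6C both did. By their medians over probe sets, TNRC6B was the 79th lowest of the 2578, TNRC6C the 346th, AGO1 the 718th, TNRC6A the 918th and AGO3 the 2504th. Of 901 genes with 3 or more probe sets above the 75th percentile of level, TNRC6B was the 33rd lowest by median, TNRC6A the 80th and AGO1 the 588th. TNRC6B has 5 such probe sets. Of 72 genes with 5 or more, only 1 had a lower median than TNRC6B.

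TNRC6A, the founding GW182 gene, divided by level. Its 3 bright probe sets were all lower on the miR-941 array: 224704_at read 7.40 with miR-941 against 7.85 in the control (-0.45), 234734_s_at read 6.47 with miR-941 against 6.80 in the control (-0.33), and 224705_s_at read 6.76 with miR-941 against 6.92 in the control (-0.17). The other 3 sat close to the detection level, between 1.02 and 1.17 on the miR-941 array and between 0.98 and 1.05 on the control array, with 2 identical and 1 higher by 0.19. Over all 6 the median difference was -0.08, and over the 3 bright ones -0.33 (SD 0.14).

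TNRC6C, the remaining paralogue, was measured near the floor. Only 222820_at stood clear of it, with 2.28 on the miR-941 array and 3.05 on the control array, a difference of -0.76. Probe sets 242314_at and 227149_at read 1.00 and 0.92 on the miR-941 array against 1.24 and 1.17 on the control array, both differing by -0.24. Probe sets 228591_at and 1561041_at were identical on both arrays. Below the detection level, 233359_at had 0.29 with miR-941 against 0.82 in the control, and 1569482_at had -0.03 with miR-941 against 0.14 in the control. No TNRC6C probe set was higher, and the median over the 5 detected was -0.24 (SD 0.31).

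**Figure D2:**
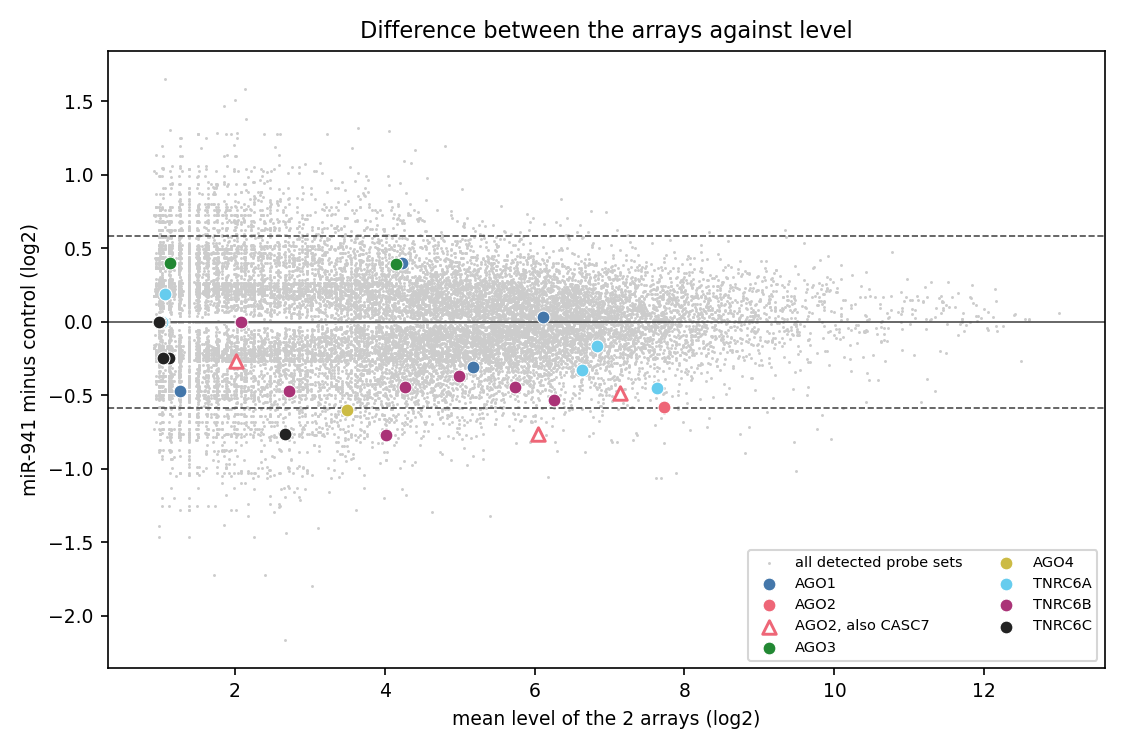
Difference between the arrays (miR-941 minus control, log2, vertical axis) against the mean of both arrays (log2, horizontal axis) for all detected probe sets (grey) and those of the 7 genes (coloured; open triangles are the AGO2 probe sets that also carry CASC7); dashed lines mark 1.5-fold. Above the 75th percentile of level, at 3.37, the TNRC6A, TNRC6B, AGO2 and AGO4 points all lie below 0, and the grey bands at low level show differences that recur exactly.

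Counted over probe sets, most TNRC6 values were lower, and the Argonaute count depended on the probe sets that AGO2 shares with CASC7. Of 18 detected TNRC6 probe sets, 12 were lower, 1 was higher and 5 were identical; of 9 detected Argonaute probe sets, 4 were lower, 4 higher and 1 identical. With the 3 shared AGO2 probe sets, 7 of 12 Argonaute probe sets were lower, 4 higher and 1 identical. Without them, both families together had 16 of 27 lower and 5 higher, and with them 19 of 30 lower, beside 43.4% lower and 44.2% higher over 23317 detected probe sets. Whether the families differ was not tested.

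Above the 75th percentile of level, 11 of 14 probe sets of the 7 genes were lower, including 8 of 8 for TNRC6 and 3 of 6 for Argonaute (5 of 8 with the shared AGO2 probe sets), where 48.1% of 12241 probe sets were lower. In that range 2 of the 14 (one each of AGO4 and TNRC6B) were lower by 1.5-fold or more, and 2.65% of all were. TNRC6A and TNRC6B had 3 and 5 probe sets there, all lower; of 901 genes with 3 or more such probe sets, 19.8% had all of them lower.

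The differences are not equally fine-grained, and this bears on AGO1, AGO3, TNRC6B and TNRC6C, and on dim probe sets of AGO2 and TNRC6A. Counting sizes that match to 6 decimals in either direction, the 0.40 of AGO1 222576_s_at is found in 1313 probe sets of the array, among them AGO3 235782_at and 241091_at. The 0.39 of AGO3 219426_at is found in 47, the 0.76 of TNRC6C 222820_at in 105 and the 0.24 of both dim TNRC6C probe sets in 1212. For TNRC6B, 3 of the 6 lower probe sets have such sizes: the 0.77 of 238468_at is found in 17 probe sets, the 0.44 of 229036_at in 136 and the 0.47 of 228998_at in 109. The 0.26 of AGO2 1561042_at, shared with CASC7, is found in 412 and the 0.19 of TNRC6A 243834_at in 3394. By contrast, 225827_at of AGO2, 227930_at of AGO4 and 213254_at of TNRC6B each had a difference found nowhere else.

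Such recurring sizes, shared by 10 or more probe sets, made up 87.2% of the nonzero differences of detected probe sets below the 75th percentile of level, 32.6% of those above it and 6.65% of those above a level of 6. With them and the identical values left out, 10 detected probe sets of the 7 genes remained, of which 9 were lower and 1 (AGO1 228120_at) higher, where 50.0% of all such probe sets were lower. AGO3 and TNRC6C then had no probe set.

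Genes listed as partners of Argonaute and TNRC6 were lower and higher in shares near those of all detected genes. The lists, like the 7 genes, were drawn up with earlier results of these arrays known. Over 48 detected genes of 3 partner lists, 24 were lower, 19 higher and 5 identical, beside 42.4% lower and 46.3% higher over all detected genes, and the median difference was -0.01. None was lower by 1.5-fold and 1 was higher, where 2.87% and 2.94% of detected genes were, so a count of 0 or 1 in 48 is near the background. The smaller counts of each list are read against the same shares.

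Of 14 detected genes that load Argonaute (heat shock chaperones and the Dicer complex), 7 were lower and 7 higher, with a median of -0.02. The lowest was CDC37, a cochaperone of HSP90, at -0.42 (5.61 on the miR-941 array and 6.03 on the control array). DICER1, the nuclease that cuts microRNAs from their precursors, followed at -0.25, and all 4 of its probe sets were lower (median -0.42, SD 0.25). At the other end were FKBP4, an HSP90-binding immunophilin, at 0.41 and HSP90AB1 itself at 0.26. Over 3 detected probe sets each, the medians were 0.03 (SD 0.23) for FKBP4 and 0.23 (SD 0.08) for HSP90AB1.

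Of 19 detected factors that TNRC6 proteins recruit or that act with them in decay, 11 were lower, 7 higher and 1 identical (median -0.06). The deadenylase CNOT8 had -0.24 and the helicase DDX6 -0.21, while CNOT11, a subunit of the same deadenylase complex as CNOT8, had 0.42 and TOB2 0.30. DDX6 read 2.23 on the miR-941 array and 2.44 on the control array. In that range, below the 75th percentile of level, 87.2% of nonzero differences had recurring sizes. TOB2 had 1 probe set higher and 1 lower, with a median of 0.13.

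Of 15 regulators and cofactors of Argonaute, 6 were lower, 5 higher and 4 identical (median 0.00). MOV10, a helicase found with Argonaute, read 4.14 on the miR-941 array and 3.51 on the control array and was the only one past 1.5-fold, at 0.63. The 2 detected MOV10 probe sets were higher, with a median of 0.40, short of 1.5-fold. P4HB, a subunit of the prolyl hydroxylase that modifies AGO2, had 0.14. At the low end, ZSWIM8, part of a ubiquitin ligase that removes Argonaute, had -0.24 and LIMD1, an adaptor that binds Argonaute, -0.07. The ZSWIM8 difference has the recurring size of 0.24 that 1212 probe sets share. The related PIWI genes, which act in the germline, were not detected: the brightest probe sets of PIWIL1, PIWIL2 and PIWIL4 read 0.18, 1.12 and 0.53 on the miR-941 array and 0.41, 0.62 and 0.53 on the control array.

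**Figure D3:**
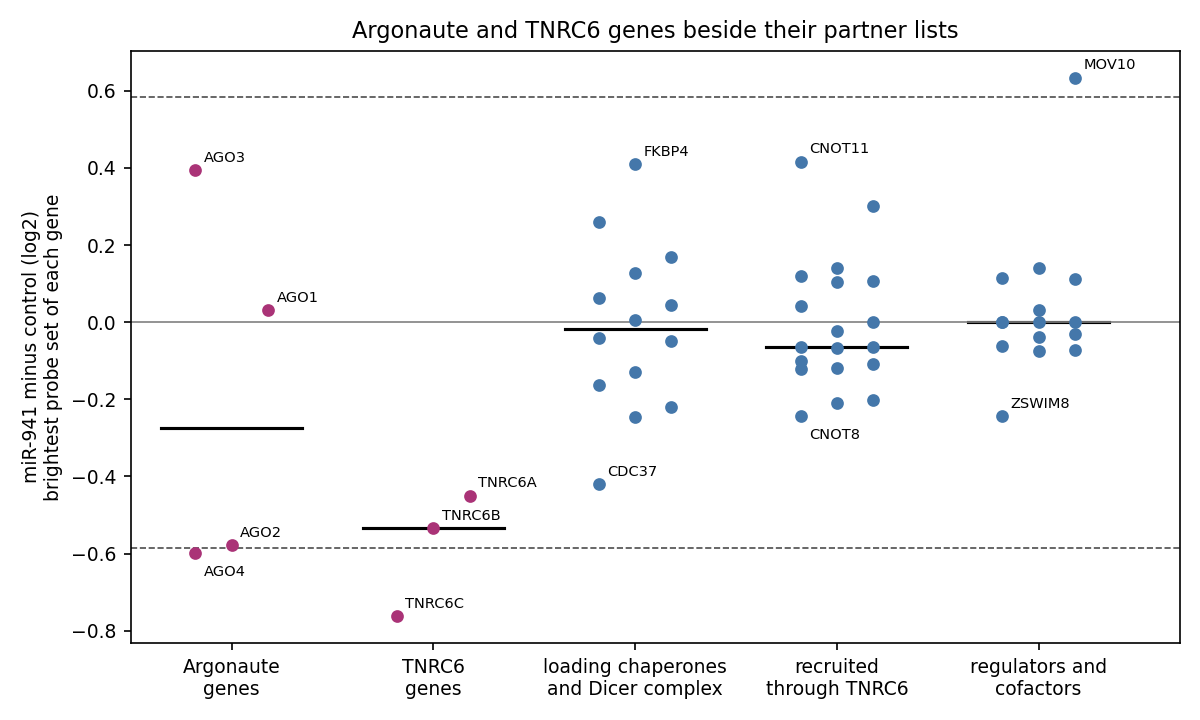
Difference between the arrays (miR-941 minus control, log2) for the brightest probe set of each Argonaute and TNRC6 gene (purple) and of each detected gene in 3 partner lists (blue); black bars are medians and dashed lines mark 1.5-fold. The TNRC6 genes lie between -0.76 and -0.45, below all 48 partner genes; by the median over probe sets TNRC6A had -0.08 and TNRC6C -0.24, above CDC37 and DICER1, both at -0.42.

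All 3 TNRC6 genes, AGO2 and AGO3 are long genes, in the longest quartile of detected genes by RefSeq gene span (the genomic length from first to last exon), and AGO1 and AGO4 are in the third quartile. In the longest quartile 50.2% of 3284 genes were lower on the miR-941 array and 4.35% were lower by 1.5-fold. In the shortest quartile 35.7% of 3285 were lower and 2.37% by 1.5-fold. The median difference was -0.01 in the longest quartile and 0.02 in the shortest. Among genes above the 75th percentile of level, where the brightest probe sets of AGO2, AGO3, TNRC6A and TNRC6B lie, it was -0.05 with 55.0% lower in the longest quartile, against 0.04 with 38.6% lower in the shortest.

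Control probe sets for the 5' ends of the actin and GAPDH mRNAs also read lower on the miR-941 array. The actin control read 6.49 at its 5' end on the miR-941 array and 7.15 on the control array (-0.66), with -0.37 in the middle and -0.04 at the 3' end, and the GAPDH controls had -0.19, -0.07 and 0.05 from the 5' to the 3' end. The ribosomal RNA controls (HUMRGE) had no such order, with -0.44 at the 5' end, -0.08 in the middle and -0.45 at the 3' end. The part of gene span or of RNA integrity in the Argonaute and TNRC6 differences was not tested.

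Markers were checked on both arrays. Of 8 genes described in 293T cells or their parent line 7 were detected, with VIM at 8.70 on the miR-941 array and 8.82 on the control array and KRT8 undetected. Of the 7, 3 were lower and 4 higher, and INA was lower by 1.5-fold (3.13 on the miR-941 array and 3.72 on the control array, -0.59). The list of genes that mark blood, liver, vessel, skin, glia, fibroblasts and muscle had 8 of 14 members detected, of which 5 were higher and 3 lower (median 0.32). HBB, a red cell gene, read 7.54 on the miR-941 array and 6.95 on the control array (0.59). VWF, a vessel gene, read 1.39 on the miR-941 array and 0.66, below the detection level, on the control array (0.73). By these probe sets HBB and VWF were higher by 1.5-fold. Of 4 HBB probe sets 3 were higher and 1 lower (median 0.67, SD 0.72), and of 2 for VWF 1 was higher and 1 identical (median 0.36). Over all detected genes 42.4% were lower and 46.3% higher, with 2.87% lower and 2.94% higher by 1.5-fold. APOA1, a liver gene, was detected at 0.80 on the miR-941 array and 1.21 on the control array, while PTPRC and CD3E (blood) and ALB (liver) lay at 0.60 or below on both arrays. The part of other cells' RNA in the Argonaute and TNRC6 differences was not tested.

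**Figure D4:**
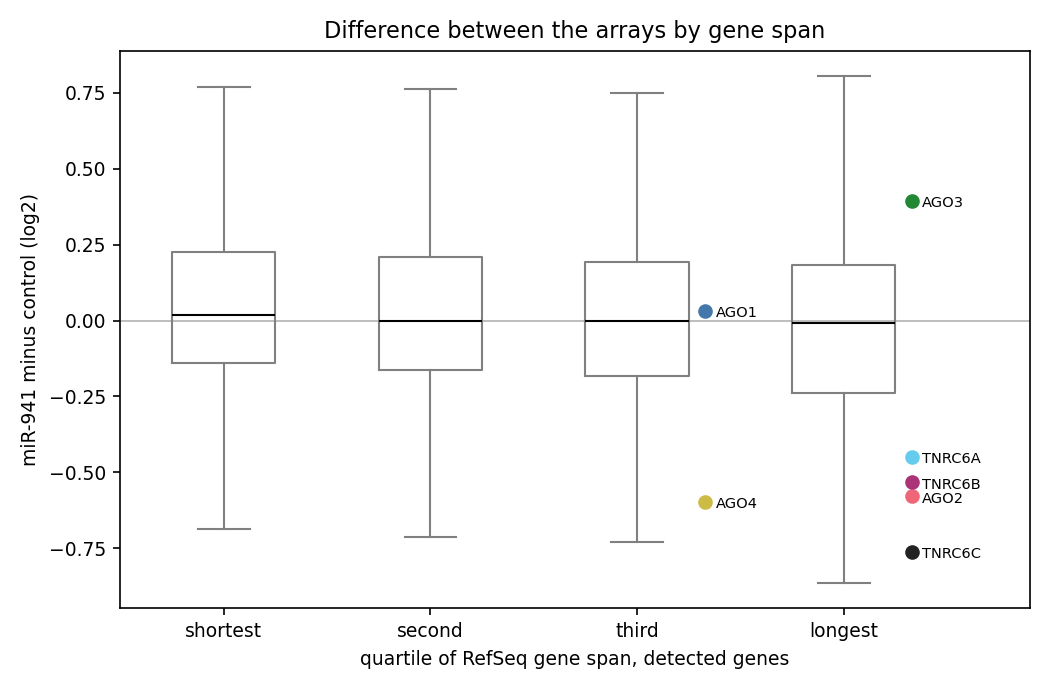
Difference between the arrays (miR-941 minus control, log2) of detected genes in 4 quartiles of RefSeq gene span; boxes show the quartiles, whiskers the most distant value within 1.5 box lengths, and coloured points the 7 genes by their brightest probe set. AGO2 and the 3 TNRC6 genes lie below the box of the longest quartile, AGO4 below that of the third, and AGO3 above its own.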

How the data were processed

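RNA from 1 precipitate of miR-941-transfected and 1 of control 293T cells was measured on Affymetrix U133 Plus arrays. The authors used RMA to make the deposited log2 values, 1 per probe set, as the design text of the series has it; the submitters' processing notes also name affy and MAS5, without roles. Scale and centring are not given in the sources used here; log2 was taken from the range (-0.31 to 13.7). Array medians over all 54675 probe sets were 0.98 (miR-941) and 0.92 (control). The number of arrays limits the precision.

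Gene names came from the platform annotation, with symbols updated through Entrez identifiers to RefSeq (GRCh38.p14); 41091 carried 1 symbol. A gene was represented by its brightest detected probe set. Differences are miR-941 minus control; with 1 array per group no test was run, and counts at 1.5-fold stand beside the share of all 13150 detected genes. Probe sets of a gene share 1 hybridisation, so their SD covers no variation between cultures.

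All 7 genes were named, with the 2 highest and 2 lowest of each partner list. Genes, lists and alternatives were chosen with earlier results of these data known. Scripts ran in Python 3.11.15 (pandas 2.3.3, statsmodels 0.14.6) and were tested on simulated data. Only the shifted genes differed between the simulated arrays, with no noise, so this checks the code and not its behaviour on noisy values.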

Additional observations from a re-analysis of the deposited data

How the results depend on the processing

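The median difference of the 7 genes (-0.53) stayed negative under all 8 alternatives run, from -0.24 (median over the detected probe sets of each gene) to -0.53; with the mean or median over probe sets, AGO1 was also lower (-0.09 and -0.14), so 6 genes were lower and AGO3 alone was higher. The count of genes lower by 1.5-fold, 2 as reported, was 1 (AGO4) above the 75th percentile of level, where TNRC6C has no probe set, and 1 with the mean or the median over probe sets, where TNRC6C had -0.25 and -0.24. It was 3 with a lowess trend removed (fraction 0.3), which took AGO2 to -0.586, and 0 at 2-fold. No gene was higher by 1.5-fold under any of these. Higher probe sets, 5 as reported, numbered 3 above the 75th percentile. They numbered 11 with each array centred on its median over detected probe sets with 1 symbol (3.58 for miR-941, 3.59 for control). That centring turns the 6 identical values into higher ones, and lower probe sets stayed at 16. With the lowess trend removed, 22 of the 27 probe sets were lower, 5 higher and 0 identical. The direction given to identical values thus depends on the processing. With recurring differences left out, an alternative chosen after seeing the data along with the quartiles of gene span and the AGO2 median over 4 probe sets, 9 were lower and 1 higher. Of 55 single-gene values under alternatives, 51 moved by less than 0.29, the pooled within-gene SD over 6106 genes (2 brightest probe sets each). The exceptions were TNRC6A (-0.13 and -0.08) and TNRC6C with the mean and median. Many of the 55 could not move, so the count is no measure of stability. Dropping the level filter or the _x_at and _s_at probe sets, or raising low values, left each brightest probe set and the 7-gene median unchanged. AGO2 and AGO4 have 1 detected probe set each, which also fixes their mean and median. With 1 array a group there was nothing to pair or to leave out. Dim probe sets give coarse differences, which limits TNRC6C and AGO3 most.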
